A study of Mus musculus with 2 samples.

Results

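Cytoplasmic ribosomal proteins are the proteins that, with the ribosomal RNAs, make up the ribosome of the cytosol. Their messengers were described here in RNA from mouse hippocampus. The genes were chosen by symbol: Rpl followed by a digit or p, or Rps followed by a digit or a, without the S6 kinases and without entries named as pseudogenes, and with at least 1 transcript annotated as protein coding. The rule found 86 of 55536 annotated genes. Of these, 77 encode core proteins of the ribosome, 46 in the large and 31 in the small subunit. The other 9 are paralogs or factors, namely Rpl3l, Rpl7l1, Rpl10l, Rpl22l1, Rpl36al, Rpl39l, Rps27l, Rps27rt and Rps19bp1. Fau and Rack1 are core proteins with other symbols, so they fall outside the rule and are given beside it. Rps4l has no protein-coding transcript in the annotation and is used only as a partner of Rps4x.

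The study holds 1 group. Hippocampus was taken from B6CASTF1/J females at 10 days of age, first-generation hybrids of a laboratory strain and a wild-derived strain, with no treatment named. Each of 2 biological replicates was a pool of 3 females, and 300 ng of total RNA with ERCC spike-ins went into a stranded library with ribosomal RNA reduced. Which layer of the hippocampus was taken is not specified.

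In every cell most core proteins are built into each ribosome in equal numbers, so the cell has to make all of them in step. Many of their messengers begin with a C and a run of pyrimidines, the terminal oligopyrimidine tract, through which mTOR and Larp1 switch their translation on and off. The genes are short, strongly transcribed and have left many processed copies in the genome, some with an intact reading frame. In neurons the messengers are also known in dendrites and axons. None of these known properties was measured as a regulation here, since the series has no treated group.

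The totals were 29858328 expected counts in replicate 1 and 32275110 in replicate 2. The members took 226065 and 235739 of them, which was 0.954% and 0.920% of the counts in nuclear protein-coding genes. Neuron and astrocyte markers were present, for example Camk2a at a TPM of 617 and 781 and Slc1a2 at 646 and 763. TPM is a transcript level corrected for length and library depth. The replicates differed in myelin genes: all 10 of the myelin list were called higher in replicate 2, where 2.85% of all 20544 genes were called in either direction. Their summed TPM was 207 and 608, with none of them at 0. Other cell types differed by less, with 0 markers called. By adjusted p alone in the exact test, 4 of 6 neuron, 2 of 3 astrocyte, 1 of 3 microglia and 2 of 4 choroid plexus markers were higher in replicate 2. Of the 4 red cell genes, 1 was lower. Ttr of the choroid plexus stood at 422 and 670. Over all genes, 16.3% were higher in replicate 2 by adjusted p. Red cell genes were listed at a summed TPM of 994 and 886. Each library had 2 sets of estimates, an alignment-based one and a read-based one made from the reads and an index. Levels are alignment-based unless the read-based set is named. P-values here compare these 2 libraries and not conditions.

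The core ribosomal protein messengers were among the most abundant of the tissue, and most lay within 2-fold of their median. Their median TPM was 234 in replicate 1 and 218 in replicate 2. That placed the median core member at the 98.9 and 98.7 percentile of nuclear protein-coding genes. Of the 77 core members, 64 lay within 2-fold of the median in replicate 1 and 66 in replicate 2. Across all 77, the highest TPM was 37.3 and 39.0 times the lowest, and the SD of log2 TPM was 0.79 and 0.81. The 78 mitochondrial ribosomal protein genes had a like SD, 0.79 in both libraries. A TPM of at least 100 was reached by 853 and 851 protein-coding genes, of which 73 and 72 were members. Of all 86, 83 had a TPM of 1 or more in both libraries, and the exceptions were Rpl3l, Rpl10l and Rpl39l. Members made up 4.35% and 4.15% of the TPM of nuclear protein-coding genes. Their share of counts was smaller because the genes are short: the median core gene was 611 bases long, against 2497 for detected protein-coding genes.

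**Figure D1:**
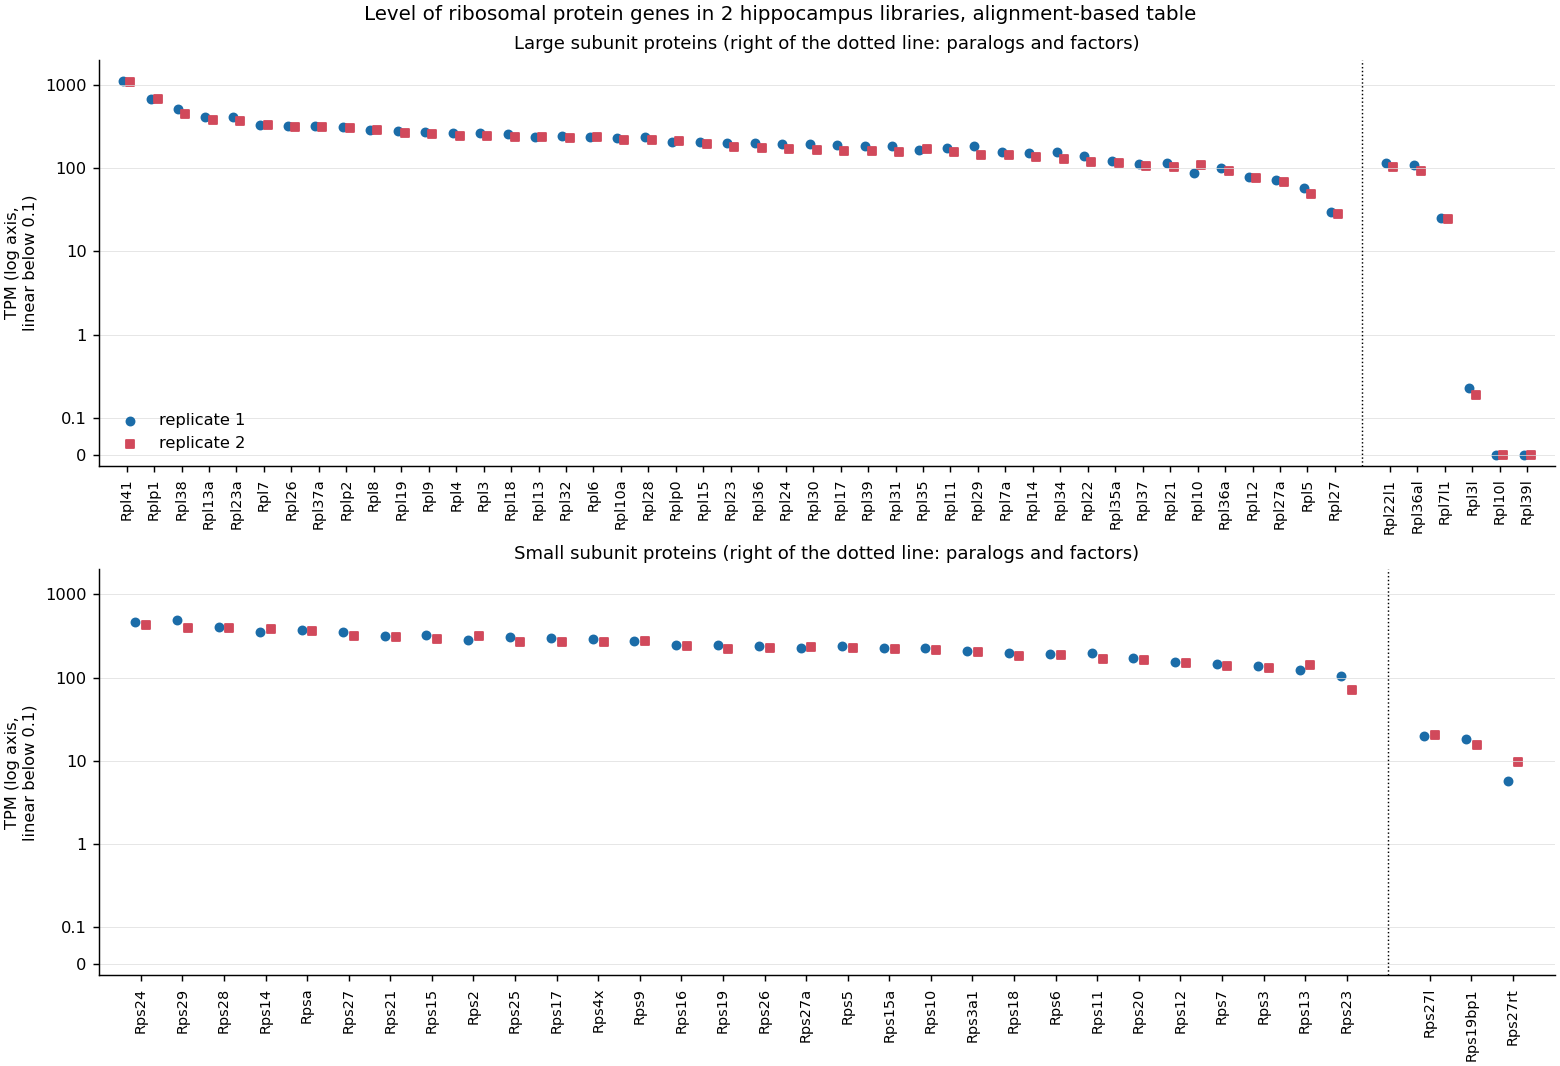
TPM (log axis, linear below 0.1) of 84 of the 86 genes in replicate 1 (circles) and replicate 2 (squares), ordered by mean, large subunit above and small subunit below. The core members run from Rpl41 at 1109 and 1090.1 down to Rpl27 at 29.7 and 27.95, and the paralogs right of the dotted lines lie at or below 116.

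Large and small subunit genes had similar levels. The large subunit core had a median TPM of 203 in replicate 1 and 187 in replicate 2. The small subunit core stood at 244 and 226. In the read-based estimates the medians were 444 and 436 for the large subunit and 459 and 441 for the small one. The lower large subunit median of the first set was therefore nearly absent from the second. The spread was wider in the large subunit, whose SD of log2 TPM was 0.91 and 0.93, than in the small one, at 0.54 and 0.57. In the read-based estimates these were 0.67 and 0.68 against 0.58 for both libraries, so the gap was much smaller there.

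Rpl41 encodes the smallest protein of the ribosome, with 25 codons, and was the most abundant member. Its TPM was 1109 in replicate 1 and 1090.1 in replicate 2. It also ranked at the top of the read-based estimates, at 2419 and 2396. Its whole coding sequence without the stop codon, read from the transcript Rpl41-203 (mm10, minus strand, gene at chr10:128548114-128549305), is short enough to show and is rich in codons that begin with aa, ag and cg.
Rpl41: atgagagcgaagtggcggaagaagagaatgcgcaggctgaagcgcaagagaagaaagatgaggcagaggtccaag

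The ribosome's stalk, which recruits elongation factors, is built of Rplp0 and copies of Rplp1 and Rplp2. Rplp1 stood at 673 and 685, Rplp2 at 316 and 303, and Rplp0 at 205 and 212. Rplp1 was thus above Rplp0 by more than the gap between replicates of either gene, but its level depended on the estimates: in the read-based set it stood at 748 and 813, with Rplp0 at 477 and 478. Rpl38, whose loss of a copy gives the tail-short mouse, stood at 510.5 and 455.

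Among small subunit genes Rps24 and Rps29 led. Rps24, mutated in some families with Diamond-Blackfan anaemia, stood at 466 and 426. Rps29, a zinc-binding protein, stood at 486 and 392, so the replicates overlapped with those of Rps24. Rps28 followed at 402 and 389.7. Rps19, the gene most often mutated in the same anaemia, stood near the core median at 247 and 219.9. Rps6, the small subunit protein that S6 kinases phosphorylate when mTOR is active, stood at 189.9 and 186. Rpsa, also known as the laminin receptor, stood at 369 and 358.

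Further large subunit genes at high levels were Rpl13a and Rpl23a. Rpl13a, which can leave the ribosome to repress inflammatory messengers, stood at 414 and 386. Rpl23a, which lies at the exit of the peptide tunnel, stood at 413 and 375. Their ranges overlapped, so their order was not set beyond the spread between replicates. Rpl3, a protein close to the peptidyl transferase centre, stood lower at 265 and 244. Between the replicates the median coefficient of variation of a core member's TPM was 5.35%, and 73 of 77 had both values within 10% of their mean.

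Rpl27, Rpl5, Rpl27a and Rpl12 were the lowest core members, with Rps23, Rpl36a and Rpl10 next. Rpl27 stood at 29.7 and 27.95, below every other core gene. Rpl5, which carries the 5S ribosomal RNA into the ribosome together with Rpl11, stood at 58.3 and 49.45, and Rpl11 at 177 and 158. Rpl27a stood at 71.75 and 67.8, and Rpl12 at 78.2 and 75.7. Rpl10, a protein that joins the large subunit late in its assembly, stood at 88.7 and 110.15. Among small subunit genes the lowest was Rps23, a protein of the decoding centre, at 106 and 70.05. The read-based estimates did not repeat this order, and the counts of processed copies are given further below. Of the 10 lowest core members of each set of estimates, 3 were shared (Rpl5, Rpl12 and Rpl27), and of the 20 highest, 15 were shared.

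The X-linked core genes are Rpl10, Rpl36a, Rpl39 and Rps4x. Their median TPM was 141 and 136, against 236 and 219.9 for autosomal core genes. Rps4x alone stood at 289 and 269.7, above the autosomal median. Rpl36a stood at 99.5 and 92.1 and Rpl39 at 183 and 162. The read-based estimates gave 482 and 455 for Rpl10, 327 and 277 for Rpl36a, 442 and 388 for Rpl39, and 409 and 384 for Rps4x, beside core medians of 456 and 441. The gap of the X-linked genes was thus narrower there.

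Core proteins with other symbols had levels within the range of the members. Fau, made as a fusion with a ubiquitin-like protein, stood at 344 and 336. Rack1, a scaffold on the small subunit that also binds kinases, stood at 147 and 152. Rps27a, made as a fusion with ubiquitin, stood at 228 and 235, near the core median. The exact two-sided sign-flip test of a ratio over 2 libraries cannot give a p below 0.5, so the ratios of gene pairs are given as values alone.

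The first bases of the messengers were read from RefSeq starts, because the tract described above is the best known shared feature of these genes. Of the 77 core members, 57 matched an entry in the RefSeq table of build GRCm38.p6, the same assembly as mm10. A start was counted as carrying the tract when the first base was C and the next 4 were each C or T, on the gene's strand. That held for 13 of the 57, or 22.8%, against 3.01% of 27025 genes in the table and 0 of 69 mitochondrial ribosomal protein genes. With a looser rule, a C followed by 7 bases that are each C or T and begins within 20 bases of the start, it held for 30 of 57, or 52.6%, against 16.6% of all genes and 20.3% of the mitochondrial ones. Each line below runs from 10 bases before the RefSeq start to 20 bases from it, with the longest such run in capitals.
Rps6: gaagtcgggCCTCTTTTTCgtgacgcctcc
Rpl38: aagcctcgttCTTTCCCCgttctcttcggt
Rpl15: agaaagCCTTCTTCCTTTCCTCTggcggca
Rps18: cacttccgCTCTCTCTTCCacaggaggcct
Rpl28: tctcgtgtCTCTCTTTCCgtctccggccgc
Rpl13a: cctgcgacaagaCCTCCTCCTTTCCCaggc
Rpl41: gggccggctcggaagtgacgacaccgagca

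The windows lie on mm10 coordinates chr4:86857348-86857377 (minus strand) for Rps6, chr11:114668570-114668599 (plus) for Rpl38, chr14:18270967-18270996 (minus) for Rpl15, chr17:33955646-33955675 (minus) for Rps18, chr7:4792955-4792984 (plus) for Rpl28, chr7:45128726-45128755 (minus) for Rpl13a and chr10:128549149-128549178 (minus) for Rpl41. They cover the promoter edge and the first transcribed bases. The first 5 carry the tract at the RefSeq start, Rpl13a carries it 2 bases further in, and Rpl41 has no such run in this window. Core members with the looser tract had a median TPM of 226 and 216, and those without it 208 and 212. In the read-based estimates the order was the other way, at 434 and 424 with the tract and 481 and 448 without it, so no steady difference in level went with the tract. The RefSeq start is 1 annotated base and messengers may begin at others, so a missing tract says only that these letters were not in this window.

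Other letters of the promoters were looked up in the same genes. The ETS core CCGGAAG, on either strand of the 300 bases around the start, was found in 24 of 57 core members, or 42.1%, against 9.93% of all genes. It was found in 37.7% of the mitochondrial ribosomal protein genes, so it did not separate the 2 kinds of ribosome. AAGATGG, the core of the YY1 motif, was found in 15.8%, against 7.28% of all genes and 18.8% of the mitochondrial ribosomal protein genes. TATAAA between 45 and 15 bases before the start was found in 0 of 57, and in 2.57% of all genes. These are matches of letters and not measured binding.

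Most paralogs were far below their core gene, and a few were not. The paralogs known from other tissues were at or near the floor of 3 counts. Rpl3l, the heart and skeletal muscle form, had 6 and 5 counts and a TPM of 0.23 and 0.19, beside Rpl3 at 265 and 244. Rpl10l and Rpl39l, known from testis, had 0 counts in both libraries. With a floor of 3 counts per library, Rpl10 was at least 565-fold and 769-fold higher than Rpl10l, and Rpl39 at least 729.99-fold and 709.8-fold higher than Rpl39l. These bounds cover counting error only.

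Rpl22l1 and Rpl36al, in contrast, were close to their partners. Rpl22 stood at 139.9 and 119 and Rpl22l1 at 116 and 103. The log2 ratio was 0.24 ± 0.05 (SD, n = 2), and the read-based one was -0.13 ± 0.05, so which of them was higher depended on the estimates. Rpl36a stood at 99.5 and 92.1 and Rpl36al at 108 and 91.9. Their log2 ratio was -0.06 ± 0.09, within the spread of the replicates, and 0.81 ± 0.03 in the read-based estimates. The coding sequences of the latter pair are 87.7% identical over 318 bases, and those of Rpl22 and Rpl22l1 67.5%. Rpl36a also has a processed copy, Rpl36a-ps2, identical to it over 321 aligned bases, which had 675 and 537 counts in the alignment-based estimates and 0 in both read-based libraries. The part of that copy in the change of the ratio of Rpl36a over Rpl36al was not tested. The first 60 coding bases of Rpl36a and Rpl36al follow, with bases that differ from Rpl36a in capitals. Rpl36a lies at chrX:134585654-134588062 (plus strand) and Rpl36al at chr12:69182731-69184083 (minus strand, mm10).
Rpl36a: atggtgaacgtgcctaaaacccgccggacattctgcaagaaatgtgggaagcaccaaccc
Rpl36al: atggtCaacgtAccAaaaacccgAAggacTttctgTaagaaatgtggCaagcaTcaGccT

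Rps27 has 2 paralogs of very different kind. Rps27 stood at 350 and 320.2. Rps27l, which is known as a target of p53, stood at 19.9 and 20.6, with a log2 ratio of Rps27 over Rps27l of 4.04 ± 0.13 (SD, n = 2). Rps27rt, a retrogene, was listed at 5.79 and 9.54, from 32.9 and 59.4 counts, and at 0 in both libraries of the read-based estimates. Its coding sequence in mm10 is 100% identical to that of Rps27 over all 252 bases. By that sequence its reads cannot be told from those of Rps27 there, and the hybrids' own sequence was not examined. The first 60 coding bases follow, with differences from Rps27 in capitals (mm10, Rps27 at chr3:90212522-90213651, minus strand, Rps27l at chr9:66946086-66949516, plus, Rps27rt at chr9:114982366-114982739, minus).
Rps27: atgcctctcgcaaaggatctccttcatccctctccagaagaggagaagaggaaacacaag
Rps27l: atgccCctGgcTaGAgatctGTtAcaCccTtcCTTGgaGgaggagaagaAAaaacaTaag
Rps27rt: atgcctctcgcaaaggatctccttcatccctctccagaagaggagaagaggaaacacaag

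The RefSeq starts of the 2 identical genes also resemble each other. The windows below run from 10 bases before the start to 20 bases from it (chr3:90213629-90213658 and chr9:114982720-114982749, minus strand for both), with the run of C or T in capitals.
Rps27: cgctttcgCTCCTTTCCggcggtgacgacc
Rps27rt: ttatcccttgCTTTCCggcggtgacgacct

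Of the remaining factors, Rpl7l1, an assembly factor of the large subunit, stood at 25.1 and 24.5 beside Rpl7 at 329.9 and 331. Rps19bp1, which binds Rps19, stood at 18.5 and 15.4. Rps4l stood at 15.9 and 24.9 beside Rps4x at 289 and 269.7. Over the 10 pairs, the core gene was higher in both libraries in 8.

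**Figure D2:**
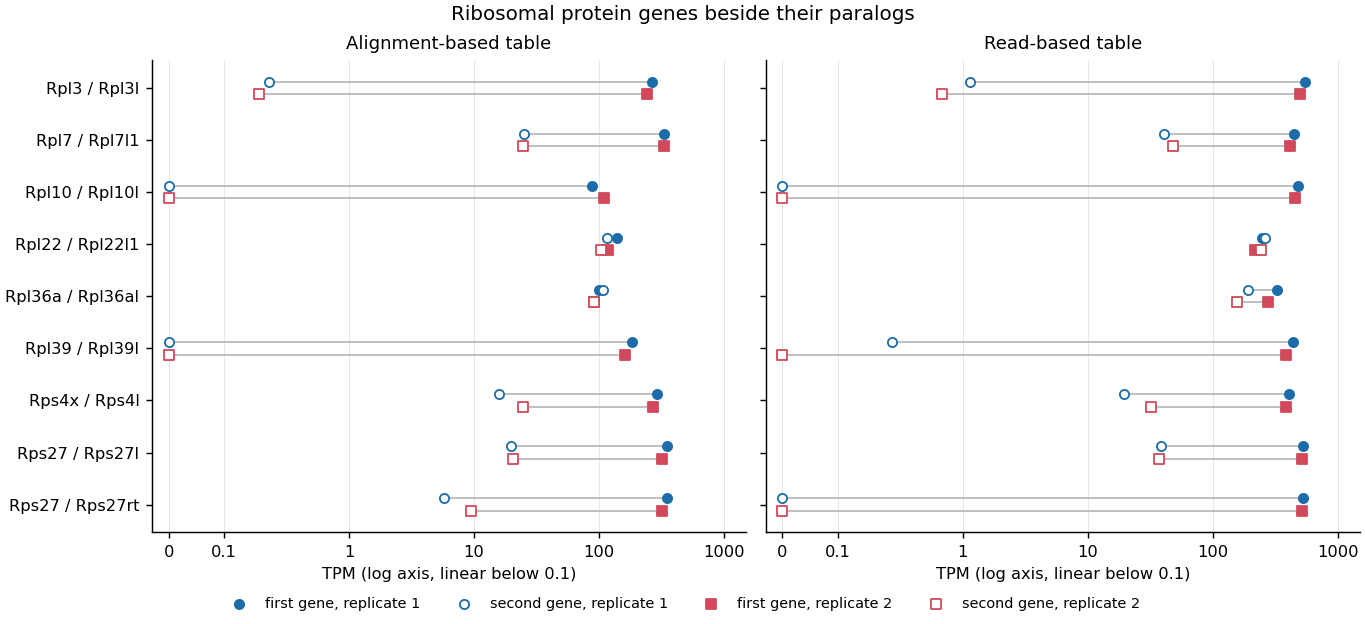
TPM (log axis, linear below 0.1) of 9 of the 10 gene pairs, first gene filled and second gene open, in replicate 1 (circles) and replicate 2 (squares), alignment-based on the left and read-based on the right. Rpl22 and Rpl22l1 change order between the panels, and Rpl36a and Rpl36al separate only on the right.

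The order of levels differed between the alignment-based and the read-based estimates, and most core members share sequence with other genes, mainly pseudogenes. How much of the difference in order came from the sharing of reads with these genes was not tested. Of the 77 core members, 72 had at least 1 stretch of 100 bases of their leading coding transcript in another gene letter for letter, and in 31 such windows made up 50% or more of the transcript. The median was 41.4%. The 466 genes that held these stretches were pseudogenes in 449 cases. They took 62070 and 65804 counts, or 27.8% and 28.3% of the core members' counts, in the alignment-based estimates. In the read-based ones they took 30270 and 33656, or 12.8% and 13.6%.

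A group of 11 core members had counts more than 1.5-fold higher in the read-based estimates in both libraries, among them Rpl10, Rpl11, Rpl12, Rpl21, Rpl27, Rpl27a, Rpl28, Rpl36a, Rpl37 and Rps23. In 4 others the counts were more than 1.5-fold lower: Rpl36, Rplp1, Rps21 and Rps29. Among all 8059 protein-coding genes with 1000 or more counts, 0.372% were higher and 0.583% lower by the same rule. Of the 10 core members with the lowest TPM, 8 were in the first group. For these genes a low level in the alignment-based estimates thus went with a higher one in the other.

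Rps23 was among the members with the widest gaps. It had 942 and 710 counts in the alignment-based estimates and 3466 and 2929 in the read-based ones. Its processed copy Rps23-ps1 (chr3:37714740-37715164, plus strand, mm10) had 2355 and 2707 counts in the first and 13.4 and 675 in the second. The copy was identical to Rps23 over 425 aligned bases. When the counts of all genes sharing its windows were added, the log2 ratio of the 2 estimates went from 1.88 and 2.04 to 0.07 and 0.08. The first 60 coding bases of Rps23 (gene at chr13:90922958-90924950, plus strand) and the matching bases of the copy are shown because no read within them could tell the genes apart.
Rps23: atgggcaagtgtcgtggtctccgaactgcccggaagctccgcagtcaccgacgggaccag
Rps23-ps1: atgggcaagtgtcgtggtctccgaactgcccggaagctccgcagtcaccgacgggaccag

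Rpl10 and Rpl27 were of the same kind. Rpl10 had 1283 and 1723 counts, and 3792 and 3985 in the read-based estimates. Rpl10-ps3 (chr9:50344201-50344968, minus strand, mm10), annotated as protein coding in spite of its name, had 2363 and 2102 counts and 0 in both read-based libraries. It was identical to Rpl10 over all 642 coding bases, and in the alignment-based estimates its TPM of 171 and 139 was above that of Rpl10. Rpl27 had 348 and 367 counts, against 1303 and 1344 read-based. Its sharing genes had 1020.24 and 1009 counts, and the log2 ratio went from 1.90 and 1.87 to -0.02 in both libraries when they were added. Rpl27 was still among the 10 lowest core members in the read-based estimates, with a TPM of 229 and 215.

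Some copies that differ by a few bases had counts in both sets, but kept counts did not follow the number of differences over all 12 copies compared. Gm10288, with 1 difference from Rpl11, had 1042 and 1270.0 counts, and 37.1 and 0 read-based. Gm10275, identical to Rpl12 over 634 aligned bases, had 2134 and 2301, and 1116 and 926 read-based. Rps2-ps13 (chrX:52898588-52899469, plus strand), with 7 differences from Rps2 over 882 aligned bases, had 5036 and 6085 counts, and 3808 and 4646 read-based. Rps2 itself had 5236 and 6342, and 6296 and 7608 read-based. Rpl3-ps1 (chrX:13202571-13203780, plus strand), with 2 differences from Rpl3 over 1210 aligned bases, had 3228 and 4071, and 2851 and 3743 read-based. The first 60 coding bases of Rps2 (gene at chr17:24718116-24721929, plus strand, mm10) and of its copy differ at 1 base, in capitals below.
Rps2: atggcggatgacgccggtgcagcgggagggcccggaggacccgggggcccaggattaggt
Rps2-ps13: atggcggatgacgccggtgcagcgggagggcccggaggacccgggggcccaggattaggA

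With the sharing genes added, all 11 members of the first group came within 1.25-fold between the estimates in both libraries, with log2 ratios from -0.19 to 0.08, where alone they had run from 0.63 to 2.04. Core members within 1.25-fold went from 53 to 66 of 77 in each library. The 4 members of the second group stayed apart, and with Rpl23a and Rps15 they made 6 core members beyond 1.5-fold in both libraries. Some members moved apart when the sharing genes were added. Rps12 went from 0.26 and -0.01 to -0.53 in both libraries, and Rps15 from -0.43 and -0.41 to -0.64 and -0.65. Adding the sharing genes therefore did not bring every member closer. Rpl36 went from -2.24 and -2.19 to -1.58 and -1.55, and Rps21, with no shared window, stayed at -1.17 and -0.84. Rplp1 had 5563 and 6208 counts alone against 2194 and 2649 read-based, and Rps29 2925 and 2585 against 1342 and 1385. What set these members apart was not tested.

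**Figure D3:**
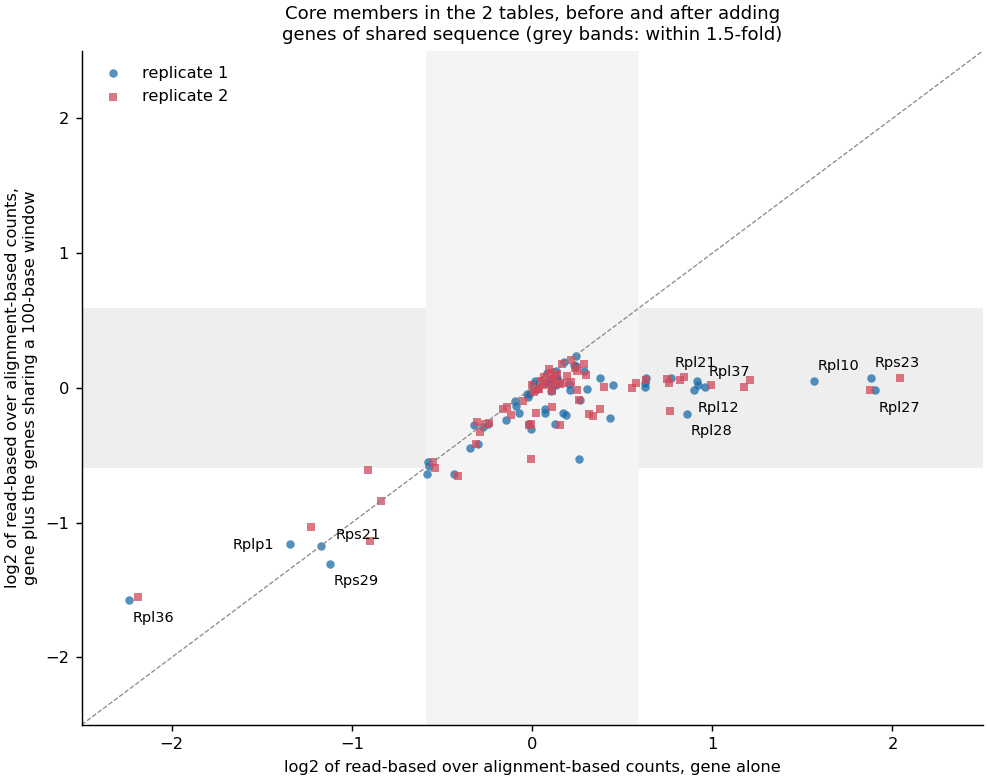
Log2 of read-based over alignment-based counts for the 77 core members, alone on the horizontal axis and with the genes that share a 100-base window added on the vertical axis, in replicate 1 (circles) and replicate 2 (squares). Rps23, Rpl27 and Rpl10 move from the far right to near 0 on the vertical axis, while Rpl36, Rplp1, Rps21 and Rps29 stay below the band of 1.5-fold and Rpl23a and Rps15 lie just under its lower edge.

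In TPM the 2 estimates also differed in the lengths they divide by. The core median log2 difference was 0.95 and 1.00 in TPM, higher in the read-based set, but 0.10 and 0.11 in counts. For other protein-coding genes the TPM difference was 0.63 and 0.65. TPM divides by the effective length, the number of positions where a fragment can start. The alignment-based effective length was 1.83 times the read-based one for the leading transcript of the median core member, with a range of 1.13 to 3.35, and 1.09 times for other protein-coding genes. A smaller effective length gives a higher TPM for the same count, and the total that TPM is scaled to also sets its level. As a share of the TPM of nuclear protein-coding genes, the members held 5.17% and 4.94% read-based. In the alignment-based set they held 4.35% and 4.15%. How much of the TPM difference came from lengths and how much from scaling was not tested. Across the 77 core members the log2 TPM of the 2 estimates had a Pearson r of 0.68 and a Spearman rho of 0.65, against an r of 0.99 between replicates. Genes are not independent replicates, and these values describe the tables alone.

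Many members were assigned to transcripts that are not annotated as protein coding, and this assignment was unstable. Such transcripts, mostly retained introns and processed transcripts, held 17.8% ± 0.597 (SD, n = 2) of the members' TPM. For other nuclear protein-coding genes the share was 16.6% ± 1.32. By counts the shares were 16.9% ± 0.612 for the members and 8.04% ± 0.860 for the others, so the members stood above other genes by counts and near them by TPM. In the read-based estimates the members' share was 32.1% ± 0.215 and that of other genes 19.9% ± 1.15. Retained introns held 8.83% and 8.30% of the members' TPM, processed transcripts 4.97% and 4.91%, and transcripts marked for nonsense-mediated decay 4.40% and 4.16%.

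The share was concentrated in a few genes. The median core member had 4.99% of its TPM in non-coding transcripts, while 14 had more than 50%. Rps26, which lies near the exit of the messenger channel, had 98.9% in both libraries, nearly all in the retained-intron transcript Rps26-202, and 70.2% and 85.5% in the read-based estimates. Rps16 had 98.4% and 98.7%, and 79.0% and 77.8% read-based. Rps20 had 93.4% and 93.6%, and 98.3% and 98.5% read-based. For these 3 genes both estimates placed the larger part in a non-coding transcript.

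For other genes the estimates disagreed. Rpl24, a large subunit protein, had 81.4% and 78.7% in non-coding transcripts in the alignment-based estimates and 15.9% and 0.650% in the read-based ones. Rpsa had 87.5% and 84.9% against 42.3% and 43.2%. In the other direction, Rpl14 had 49.9% and 47.4% against 92.5% and 97.0%. The same transcript led in both estimates in 34 of 77 core genes, so the leading transcript of a ribosomal protein gene was uncertain in these libraries.

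Rps24 gives an example among coding transcripts. Rps24-202 held a TPM of 440.3 and 403 in the alignment-based estimates, where Rps24-207 had 6.38 and 6.05. In the read-based estimates Rps24-202 stood at 357 and 309 and Rps24-207 at 505 and 460.2. Rpl22l1 gives one among paralogs. The processed transcript Rpl22l1-209 held 84.2% and 83.5% of its TPM, and 8.66% and 21.3% in the read-based estimates, where another processed transcript, Rpl22l1-202, held 54.7% and 51.1%. Both estimates thus placed most of Rpl22l1 in transcripts without an annotated reading frame, so the gene's total is not a level of its coding messenger.

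**Figure D4:**
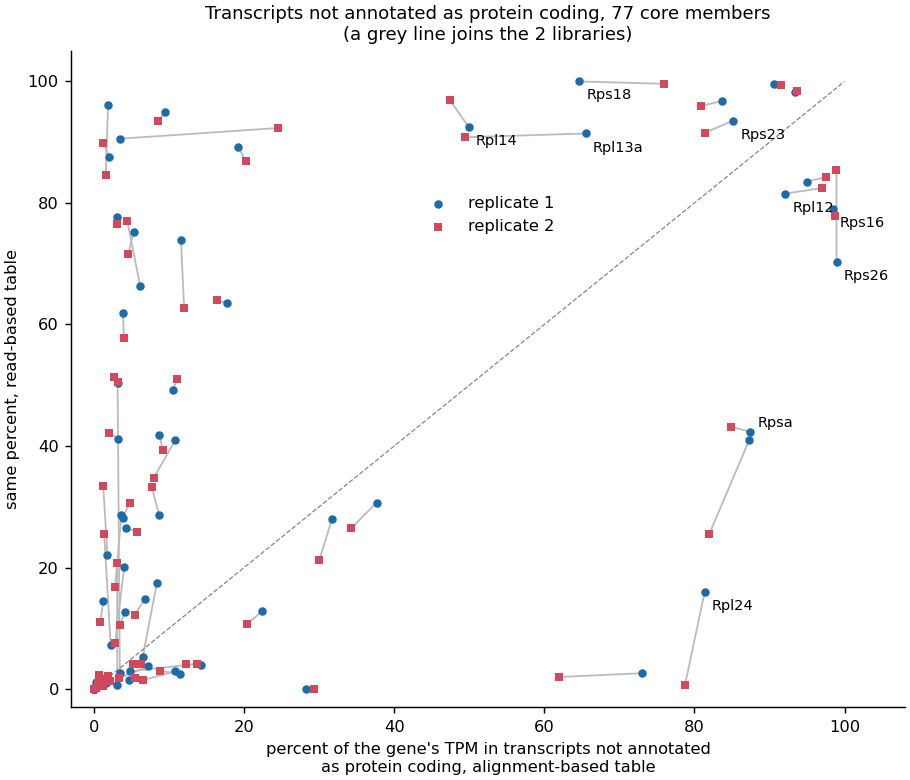
Percent of each core member's TPM in transcripts not annotated as protein coding, alignment-based (horizontal) against read-based (vertical), in replicate 1 (circles) and replicate 2 (squares). Rps26 and Rps16 are high on both axes, Rpl24 lies at the lower right, and Rpl14 and a few genes further left reach above 80% on the vertical axis.

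Ribosomal protein genes are known to carry snoRNAs, guides for the modification of ribosomal RNA, in their introns. Of the 77 core genes, 30 held 58 annotated snoRNAs on their strand, or 39.0%, against 217 of 12936 other detected protein-coding genes, or 1.68%. Rpl4 held 5 and Rpl13a held 4. Host genes had a median TPM of 200.005 and 174, and other core genes 237 and 224. Their median share in non-coding transcripts was 8.53% and 8.24%, against 3.12% and 2.82%. Hosts were also longer, with a median of 780 bases against 560, so length moved with both differences and its part in them was not tested.

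Between the 2 replicates most members differed by little, as did most protein-coding genes with many counts. Of 84 members tested, 0 were called at 2-fold by the exact two-sided binomial test with Benjamini-Hochberg adjustment, where 2.85% of 20544 genes were called. That share is small and includes genes with as few as 10 counts over both libraries, so 0 of 84 does not set the members apart. At an unadjusted p below 0.05 there were 33. By adjusted p of 0.05 or less alone, 19 members were higher in replicate 2, or 22.6%, where 16.3% of all genes were, and 8 were higher in replicate 1, or 9.52%, where 11.1% of all genes were. Of the 8061 protein-coding genes that had at least 1000 counts, 34.4% were higher in replicate 2 and 11.3% were lower. The members' share of higher genes was below that of these genes. The 1000 counts are a floor on the sum over both libraries and not a match in depth. The split also depended on the scaling. It was 24 higher and 5 lower in replicate 2 with DESeq2 size factors, 3 and 30 by total counts, 29 and 4 read-based, and 0 and 77 by spike-ins. Spike-in scaling also moved the median of all genes to -0.29, so the directions below are relative to the bulk of genes, and under it 0 members rank as higher in replicate 2 by adjusted p. The median log2 ratio was 0.0088, beside -0.0047 over all tested genes and 0.03 over protein-coding ones.

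Of the 77 core members, 75 lay within 1.25-fold between the replicates and all lay within 1.5-fold. For comparison, 92.5% of the 8061 protein-coding genes that had at least 1000 counts did so at 1.25-fold. The SD of the log2 ratio was 0.12 for the core members and 0.18 for those genes. Myelin genes moved between the same libraries by a median log2 of 1.72, and their part in the members' values was not tested. In RNA from whole tissue, fewer cells of a type and less RNA per cell cannot be told apart.

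Rps23 and Rpl10 were the 2 core members outside 1.25-fold, and in both the ratio was near 0 once the genes that share their sequence were added. Rps23 had 942 and 710 counts, a log2 ratio of replicate 2 over replicate 1 of -0.44 with a counting SE of 0.07 (adjusted p = 1.84e-08 by the exact binomial test). With its sharing genes added, the counts were 3308 and 3426 and the ratio was 0.02 with a counting SE of 0.04 (adjusted p = 0.707, exact). Rpl10 had 1283 and 1723 counts and a ratio of 0.40 (adjusted p = 1.47e-12, exact). With sharing genes it had 3666 and 3845 counts and a ratio of 0.04 (adjusted p = 0.403, exact). Rpl10 alone had a ratio of 0.08 in the read-based estimates.

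With the sharing genes added, 20 members were higher and 10 lower in replicate 2 by adjusted p in the exact test, all by under 1.25-fold. Rps2 had 5236 and 6342 counts and a log2 ratio of 0.25 alone (adjusted p = 8.65e-19, exact) and 0.21 with sharing genes. Rpl3 had 4875 and 5491 counts and a ratio of 0.14 alone (adjusted p = 4.34e-06, exact) and 0.21 with sharing genes. The gap of Rpl3 between libraries was thus wider with its copies than without. Rps14 had 3377 and 4093 counts and a ratio of 0.25 both alone and with sharing genes (adjusted p = 2.16e-12 alone, exact). Rps29 was lower in replicate 2, with 2925 and 2585 counts and a ratio of -0.21, but stood at 0.06 in the read-based estimates. Rpl29 had 2325 and 2040.5 counts and a ratio of -0.22, and -0.13 with sharing genes. With sharing genes added, all 77 core members lay within 1.25-fold and the SD of the ratio fell from 0.12 to 0.09. The paralog Rps27rt, with 32.9 and 59.4 counts, was the member with the widest ratio alone, at 0.80 with a counting SE of 0.31 (adjusted p = 0.0356, exact). With Rps27 and the other genes that share its sequence added, the ratio was -0.01 (adjusted p = 0.971, exact). Rps27 alone had 1814 and 1816 counts, so the sum mostly follows Rps27 and cannot show whether Rps27rt differed.

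**Figure D5:**
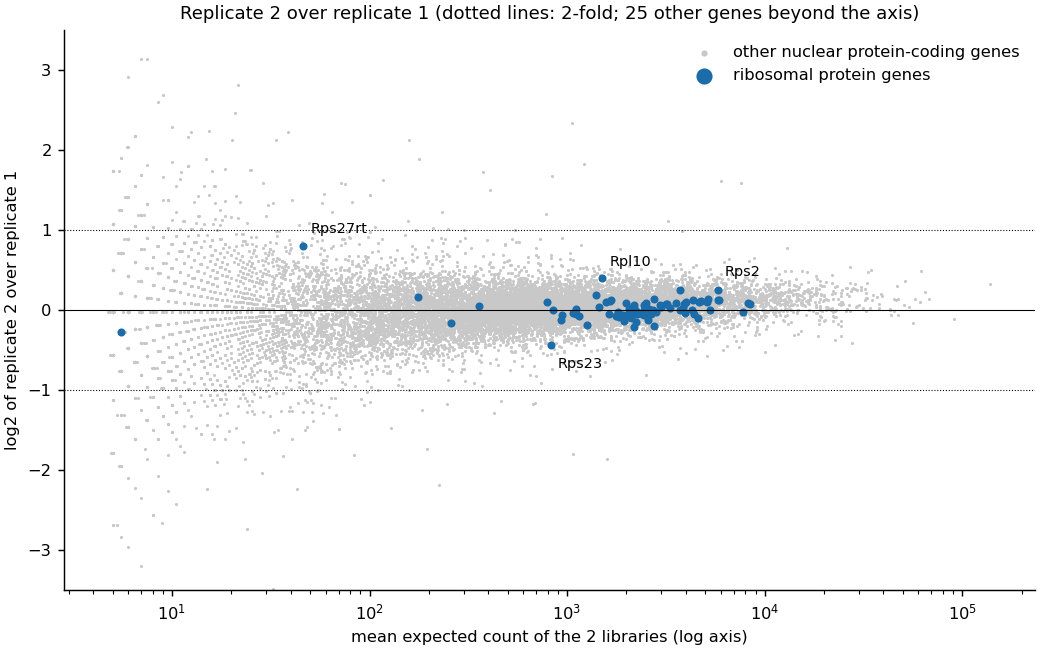
Log2 of replicate 2 over replicate 1 against the mean expected count (log axis) for nuclear protein-coding genes (grey) and ribosomal protein genes (blue), with dotted lines at 2-fold. The ribosomal protein genes lie near 0 at 1000 counts and more, with Rpl10 and Rps23 as the widest of the core and Rps27rt wider at low counts.

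The lists of genes that work with the members had lower median levels than the core, though single genes lay above it. The list of elongation factors and other messengers known to carry the tract held 15 genes, all at a TPM of 1 or more, with a median TPM of 124 and 110.4. Eef1a1, the factor that brings amino acids to the ribosome, stood at 1785 and 1755, and Tpt1 at 496 and 439. By adjusted p in the exact test, 4 of the 15 were higher in replicate 2 and 3 in replicate 1. The median log2 ratio was 0.01.

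All 31 genes of ribosome biogenesis were detected, with a median TPM of 19.6 and 19.5. Ncl, the nucleolar protein nucleolin, led at 91.0 and 82.1, and Nop56, a protein of snoRNA particles, stood at 81.9 and 73.8. In the exact test 1 was higher in replicate 2 and 1 in replicate 1. All 14 genes of the mTOR control of these messengers were detected, with a median of 21.04 and 20.2. Tsc2, an inhibitor of mTOR, stood at 74.9 and 58.0, its activator Rheb at 52.6 and 52.8, and Larp1, which binds the tract, at 39.2 and 37.9. Eif4ebp1, a translation repressor that mTOR inactivates, was the lowest at 1.85 and 1.68. In the exact test 2 of the 14 were higher in each replicate. None of these lists held a gene called at 2-fold, where 2.85% of all 20544 genes were. Lists of 14 to 31 genes are too short for 0 calls to differ clearly from that share. By adjusted p alone, 16.3% of all genes were higher in replicate 2 and 11.1% in replicate 1.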

How the data were processed

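The 2 libraries of 1 group were used. The submitters' processing notes name build mm10 and annotation M21, and the sources used here do not name the programs. Expected counts and estimated counts, per the file headers, are unnormalized reads assigned by the authors per gene or transcript. TPM values were deposited by the authors, scaled over all entries including spike-ins. Read-based transcript values were summed per gene; whether strand was used in counting is likewise not named. The members, lists, pairs and tests were chosen with earlier results of these data known. Named genes were the 20 highest and 10 lowest core members, all pairs, the 10 members with the widest ratios between libraries and between tables, the 10 with the largest non-coding shares, and the 4 highest and the lowest of each list. Processed copies and some further members were named after their values were seen, and a few genes that the rule names are not reported here.

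Rounded counts of each gene were tested with the two-sided exact binomial test, conditional on their sum, with TMM effective library sizes (edgeR 4.0.16, R 4.3.3), for 10 or more counts over both libraries, with Benjamini-Hochberg adjustment over all 20544 genes. Calls needed an adjusted p of 0.05 and 2-fold, and ratios had a pseudocount of 0.5 counts. Pair ratios were log2(TPM + 0.1). DESeq2 1.42.0 gave other size factors. In simulated counts with 200 changed genes among 20561, this test of replicate 2 over replicate 1 called 100 of 100 genes changed 4-fold, 99 of 100 changed 2.83-fold, and 1 of 20361 unchanged. The changed genes were drawn from those with more than 100 counts over both libraries. Recovery of genes with fewer counts was not simulated. The simulated counts were Poisson draws, with counting error alone and no variation between pools. They therefore give no rate of false calls for the real libraries. Windows of 100 bases of each member's leading coding transcript were looked up in all GENCODE M21 transcripts. Start sequences are from RefSeq, GRCm38.p6. Protein sequences were not used here. At these depths the floor is 3 counts per library, which covers counting error only.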

Additional observations from a re-analysis of the deposited data

How the results depend on the processing

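No paired analysis was possible because the series has 1 group. The members' median TPM of 206 became 429 in the read-based estimates, 459 over nuclear protein-coding genes, 226 for the core and 219 at a TPM of 1 or more. The SD of log2 TPM of 1.13 became 0.90, 0.80 for the core and 1.11 with log2(TPM + 1). The log2 ratio of large over small subunit medians of -0.33 became -0.024 read-based. The median log2 ratio between libraries of 0.0088 became 0.036 with DESeq2 size factors, -0.075 by total counts, -0.28 by spike-ins and 0.059 read-based, and protein-coding genes as a whole moved with it from 0.03 to 0.06, -0.05, -0.26 and 0.04. Members with an adjusted p of 0.05 or less went from 27 to 77 by spike-ins and to 30 with sharing genes, a setting added after seeing the data. At 1.5-fold, 1 member was called, Rps27rt, instead of 0. The log2 ratio of read-based over alignment-based TPM of 0.96 became -0.022 in CPM and 0.94 with a pseudocount of 1. The non-coding share of 17.8% became 16.9% by counts, 32.1% read-based and 13.5% with decay transcripts as coding. Of 50 settings of the pairs, 33 stayed the same, 14 moved and 3 reversed: Rpl22 over Rpl22l1 at -0.13 read-based, and Rpl36a over Rpl36al at 0.81 read-based and 0.0036 without replicate 1, where it was -0.12 without replicate 2. Unless the setting's own construction shows it, the cause was not tested. Depth limits what can be said of Rpl3l, Rpl10l, Rpl39l and Rps27rt, which had under 60 counts per library.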

Other observations

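The mitochondrial ribosome gave another set of ribosomal proteins in the same libraries. All 78 genes named Mrpl or Mrps with a number were detected, with a median TPM of 23.9 and 24.1. The cytoplasmic core median was 9.82-fold and 9.07-fold above this, and 74 and 73 of the 77 core members lay above the highest mitochondrial gene, Mrps21 at 76.6 and 70.9. The spread within the mitochondrial set, an SD of log2 TPM of 0.79 in both libraries, was close to the core's 0.79 and 0.81. Of the 78, 19 were higher in replicate 2 and 1 in replicate 1 by adjusted p in the exact test, and 0 were called at 2-fold. Over all 20544 genes 16.3% and 11.1% were so, and the split of the mitochondrial set was not recomputed under other scalings.

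Entries named as numbered copies of ribosomal protein genes came to 300, of which 6 are annotated as protein coding. They took 28382 and 30583 counts, and 12281 and 15393 in the read-based estimates. Rps12-ps3, one of the 6, had 1568 and 1487 counts beside 1514 and 1650 for Rps12. In the read-based estimates it had 366 and 563, beside 1817 and 1643 for Rps12.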
